A study of Mus musculus with 12 samples.

Results

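The PYHIN genes Aim2, Ifi213, Ifi207, Ifi204, Mndal and Ifi203 lie together on mouse chromosome 1, and their RNA was measured in heart ventricle by bulk RNA sequencing. These 6 of the 78317 genes in the count table were chosen by symbol, with results of the same comparison already known, among them that Ifi203 passed the test. Their differences between the groups are therefore given as a description, and they support nothing further.

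PYHIN proteins usually join a pyrin domain, which binds other pyrin domains, to a HIN domain, which binds DNA. AIM2 detects double-stranded DNA in the cytosol and recruits the adaptor ASC (gene Pycard) and caspase-1, the complex called the AIM2 inflammasome. The mouse Ifi200 genes were named as interferon-inducible genes, are best known in macrophages and other immune cells, and differ in number and sequence between mouse strains.

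The libraries came from the hearts of uninjured C57BL/6J mice with different fathers. In the injured-sire group the father had received a cryoinjury, a freezing injury of the heart, on postnatal day 1 (the group label itself reads P0), and in the uninjured-sire group the father had no injury. All hearts were collected at 3 wpp, although the same label calls the animals adult. Each group had 6 libraries, the offspring of injured sires being 3 males and 3 females and those of uninjured sires 4 males and 2 females, and the labels do not say which library is which sex or which animals share a sire or litter. Injured-sire replicate 16 did not enter the comparison because the labels call it an outlier by principal components, so that 5 libraries (replicates 12, 13, 14, 15 and 17) stood against 6 (replicates 18 to 23). Since several offspring of 1 sire may be among them, the p-values measure the spread between these libraries only.

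Total counts per library ran from 30537315 to 42090257. Of 17130 genes tested with the quasi-likelihood test of edgeR, 9 were higher and 9 lower in the injured-sire group at an adjusted p under 0.05. Heart muscle markers summed to between 60369 and 74156 CPM in the 11 libraries. CPM is the read count scaled to library size, here with TMM factors, which correct for differences in library composition.

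In the count table, which is on GRCm39, the 6 genes span 591.8 kb. Aim2 (ENSMUSG00000037860) lies at chr1:173178445-173293606 on the plus strand. On the minus strand follow Ifi213 (ENSMUSG00000073491) at chr1:173393849-173426840, Ifi207 (ENSMUSG00000073490) at chr1:173550993-173569313, Ifi204 (ENSMUSG00000073489) at chr1:173574859-173594509, Mndal (ENSMUSG00000090272) at chr1:173676692-173708447 and Ifi203 (ENSMUSG00000039997) at chr1:173747973-173770238. Mndal shares 118 exon bases on its own strand with the gene model Gm38050, so its count is uncertain there. The other 5 shared no exon base with another gene on either strand.

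The sequence just before the start is shown because the members are interferon-inducible genes and many of them carry the same short element there. RefSeq start windows, of 250 bases before and 50 after a start, were at hand for 5 of the 6 members, as 7 windows on GRCm38.p6, a different build from that of the gene positions above. A letter pattern of the interferon-stimulated response element core, GAAANNGAA, was searched on both strands. It was found for 4 of these 5 members, against 9.76% of 27025 genes with a window. It occurred in the 100 bases before the start in 2.74% of all 32851 windows. The 40 bases around the plus-strand match are given 5′ to 3′ along each gene's own strand, with the match in capitals.
Ifi203: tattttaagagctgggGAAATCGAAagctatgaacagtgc
Mndal: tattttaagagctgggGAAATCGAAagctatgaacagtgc
Ifi213: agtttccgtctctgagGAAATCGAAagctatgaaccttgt
Ifi207: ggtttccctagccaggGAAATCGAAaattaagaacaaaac

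The match began 35 bases before the start in the second of 2 Ifi203 windows (position -35), at -36 in the first Mndal window, at -41 for Ifi207 and at -73 for Ifi213. Ifi203 and Mndal carried the same 40 bases, and their windows shared an unbroken run of 139 identical bases. Ifi213 carried the same 40 bases as its relative Ifi208, with a shared run of 135. The 15 bases TCGAAAGCTATGAAC, which begin inside the match, were in windows of 5 family genes (Ifi203, Ifi206, Ifi208, Ifi213 and Mndal) and in none of the other genes of the 27025. That run was picked because it was in the most family genes, so its absence elsewhere is no test of it. Among 7 relatives with a window, 5 held the core pattern. The window of the relative Ifi209 held none, and its nearest stretch is shown to compare it with the members.
Ifi209: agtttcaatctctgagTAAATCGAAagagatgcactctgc

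Counted from 1 at the first capital of the Ifi203 element, the Ifi209 stretch differed by G1T over 11 bases. The Aim2 window held no match, and its nearest stretch differed at 5 of the 11 bases. Neither a STAT core (TTCNNNGAA, in 9.55% of genes) nor an NF-kB core (GGAANNNCC, in 20.7% of genes) was found in the windows of the 5 members. A match is a run of letters and no evidence of a bound factor. The whole windows of Ifi203 (the second, chr1:173942443-173942742, minus strand) and Ifi213 (chr1:173599223-173599522, minus strand) are given because these were the members whose groups did not overlap, as described below.
Ifi203: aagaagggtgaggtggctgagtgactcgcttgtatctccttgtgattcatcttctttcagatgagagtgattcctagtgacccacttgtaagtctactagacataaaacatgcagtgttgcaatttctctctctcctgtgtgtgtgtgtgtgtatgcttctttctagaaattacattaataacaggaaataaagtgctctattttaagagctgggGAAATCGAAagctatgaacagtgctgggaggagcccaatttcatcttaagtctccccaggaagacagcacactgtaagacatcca
Ifi213: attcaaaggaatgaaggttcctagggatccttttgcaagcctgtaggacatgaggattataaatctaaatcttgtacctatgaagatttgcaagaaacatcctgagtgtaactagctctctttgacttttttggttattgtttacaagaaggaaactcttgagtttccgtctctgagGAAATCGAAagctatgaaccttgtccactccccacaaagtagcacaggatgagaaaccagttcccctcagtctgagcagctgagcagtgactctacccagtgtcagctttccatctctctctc

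The members differed widely in level. Per kb of counted exon length over 11 libraries, Mndal had 6.16 ± 1.13 CPM per kb (SD, n = 11) and Ifi203 had 4.46 ± 0.909. Ifi207 followed at 1.88 ± 0.501 and Ifi204, which encodes the p204 protein related to human IFI16, at 1.02 ± 0.297. Aim2 stood at 0.451 ± 0.161 CPM per kb and Ifi213 at 0.115 ± 0.0678. Each gene was above the next in this order in 11 of 11 libraries, except that Ifi207 was above Ifi204 in 10. The place of Mndal above Ifi203 rests on their counted lengths of 3591 and 6706 bases. Before division by length, Ifi203 had more counts than Mndal in every library. There were 1.14 to 1.40 Ifi203 counts per Mndal count in the injured-sire group and 1.32 to 1.58 in the uninjured-sire group. Mndal and Ifi203 together made most of the RNA counted for the 6 genes, with 43.7% and 31.7% of their summed level per kb.

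**Figure D1:**
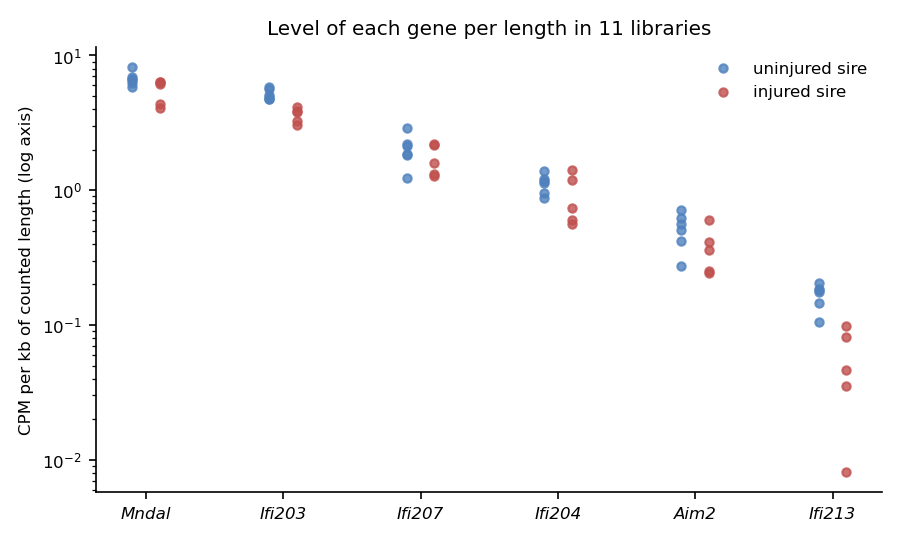
CPM per kb of counted exon length (log axis) of each gene, with 1 point per library (6 uninjured-sire, 5 injured-sire). The genes step down from Mndal, with a mean of 6.16 CPM per kb, to Ifi213, with 0.115.

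Reads that map to more than 1 place were not counted, so the levels of genes with near-identical copies are lower bounds of an unknown margin. Of all 50-base windows in the Ifi204 transcripts of GENCODE M21, 20.0% also occurred in transcripts of other genes, mostly Ifi211. The share was 19.6% for Mndal (Ifi211, Ifi205 and Ifi203), 15.6% for Ifi213 (Ifi208 and Ifi206) and 12.4% for Ifi203 (Ifi203-ps and Mndal). It was 7.29% for Ifi207 and 0.742% for Aim2. At 100 bases the shares were 10.7% for Ifi204, 6.38% for Mndal, 3.3% for Ifi213, 2.84% for Ifi203, 0.79% for Ifi207 and 0.0% for Aim2. Aim2, which stands at the edge of the cluster, was almost free of shared sequence, while the relative Ifi211 shared 72.8% of its 50-base windows. The read length is not given in the sources used here, and only transcripts were searched.

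All 6 members had a lower fitted level in the injured-sire group, where 49.9% of all tested genes were lower. Ifi203 alone passed the test over all genes, among which 0.0525% were called lower. An unadjusted p under 0.05 with a lower level was found for 3 members (Ifi203, Ifi213 and Mndal) and for 4.68% of all genes. Every injured-sire library lay below every uninjured-sire library for 2 members (Ifi203 and Ifi213) and for 0.625% of all genes. The median log2 fold change was -0.39 over the members and 0.0002 over all genes. Because the members were picked with this comparison in view, nothing is read from these counts. In bulk tissue, fewer cells of a type and less RNA per cell cannot be told apart.

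**Figure D2:**
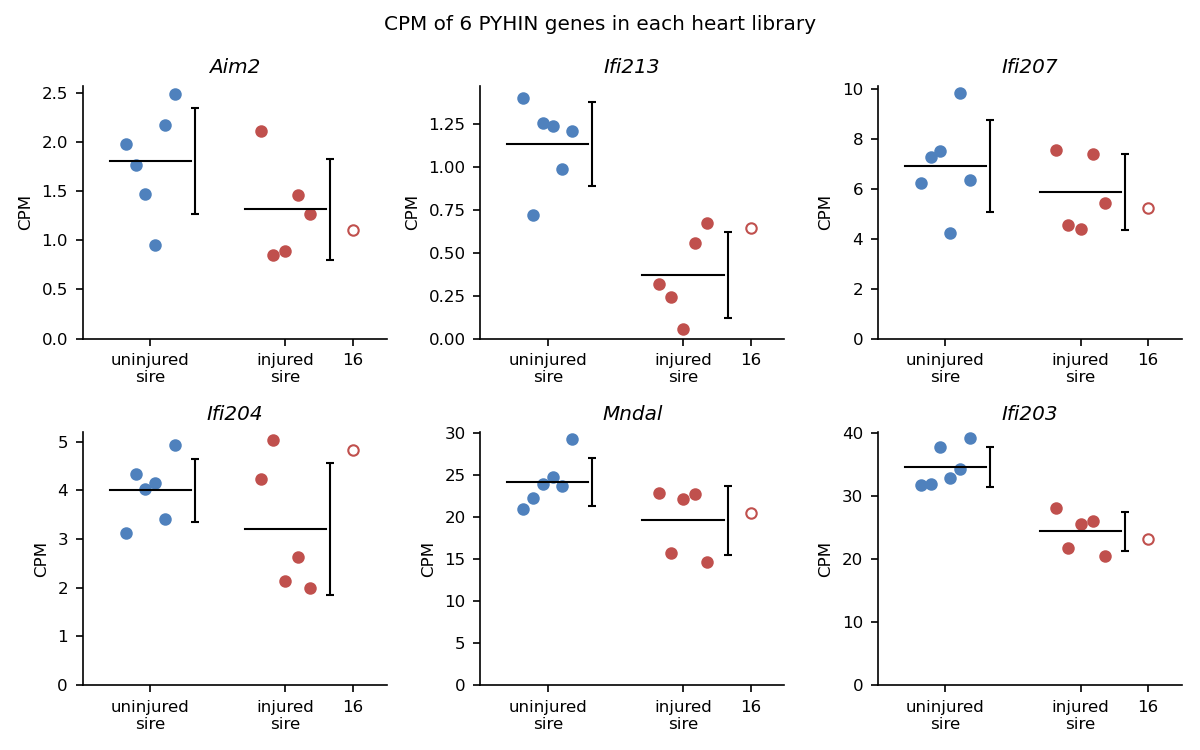
CPM of the 6 genes in each library, by group. Lines are group means, bars beside them ±1 SD (6 uninjured-sire, 5 injured-sire libraries), and the open circle is injured-sire replicate 16, which was not in the comparison. The groups are apart for Ifi203 and Ifi213 and overlap for the other four.

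Ifi203, which encodes the HIN-domain protein p203, stood at 28.0, 21.8, 25.5, 25.97 and 20.5 CPM in injured-sire replicates 12, 13, 14, 15 and 17. In the uninjured-sire group its lowest, median and highest values were 31.7, 33.5 and 39.1 CPM. The groups did not overlap. The means were 24.3 ± 3.13 CPM (SD, n = 5) and 34.5 ± 3.15 CPM (SD, n = 6). On the log2 scale the difference was -0.50 ± 0.0868 (SE), with a 95% confidence interval of -0.68 to -0.32 and an edgeR adjusted p of 0.0132. Ifi203 ranked 10 by p among all genes tested. Left out of the comparison, replicate 16 had 23.1 CPM (scaled with all 12 libraries) and also lay below every uninjured-sire library.

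The call of Ifi203 rested on 2 libraries in part. Without injured-sire replicate 13 the log2 fold change was -0.47 with an edgeR adjusted p of 0.0808, and without uninjured-sire replicate 23 it was -0.47 with an adjusted p of 0.0555. Over all 19 alternatives its adjusted p ran from 2.71e-07 to 0.0808.

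Ifi213 was the least abundant member, with 12, 8, 2, 23 and 23 counts in injured-sire replicates 12, 13, 14, 15 and 17. That made 0.316, 0.242, 0.0553, 0.558 and 0.677 CPM. The uninjured-sire libraries had 24 to 52 counts, with a lowest, median and highest value of 0.718, 1.22 and 1.41 CPM. No library of the first group reached the lowest of the second, but the gap between 0.677 and 0.718 CPM was small. Group means were 0.370 ± 0.249 CPM (SD, n = 5) and 1.14 ± 0.245 CPM (SD, n = 6).

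The log2 fold change of Ifi213 was -1.61 ± 0.476 (SE), with a 95% confidence interval of -2.60 to -0.62 and an edgeR adjusted p of 0.245. It did not pass the test. Ifi213 passed the filter on low counts through the uninjured-sire group, since 3 of 5 injured-sire libraries reached the minimum of 0.280 CPM and 5 libraries were needed. Replicate 16 had 24 counts of Ifi213, or 0.645 CPM on the scale of all 12 libraries, below the lowest uninjured-sire library at 0.713. The injured-sire libraries compared also had fewer genes with any count, 21990 to 24146 against 23711 to 26788, and its part in the Ifi213 values was not tested.

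Mndal, an Ifi200 gene named for its likeness to human MNDA, had 22.9, 15.7, 22.2, 22.7 and 14.6 CPM in injured-sire replicates 12, 13, 14, 15 and 17. Its uninjured-sire values were 21.0 CPM at the lowest, 23.8 at the median and 29.4 at the highest. Replicates 13 and 17 were low, and the other three lay within the uninjured-sire range. The log2 fold change was -0.30 ± 0.120 (SE), with an edgeR adjusted p of 0.44. Replicate 16 had 20.5 CPM, just under the lowest uninjured-sire library.

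Ifi207 stood at 7.56, 4.54, 4.397, 7.43 and 5.44 CPM in the 5 injured-sire libraries and at 4.25, 6.82 and 9.86 CPM (lowest, median, highest) in the uninjured-sire group. The lowest value of all belonged to an uninjured-sire library, and the groups overlapped throughout. Its log2 difference was -0.23 ± 0.193 (SE, adjusted p = 0.796 in edgeR).

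Ifi204 had 4.24, 5.03, 2.13, 2.62 and 2.001 CPM in the same 5 injured-sire libraries, against 3.13, 4.09 and 4.93 CPM (lowest, median, highest). Replicates 14, 15 and 17 lay below the uninjured-sire range, while replicate 13 was above it. In log2 it differed by -0.32 ± 0.229 (SE, adjusted p = 0.746 in edgeR), and replicate 16 was high at 4.83 CPM.

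Aim2, the DNA sensor of the inflammasome, had 2.11, 0.848, 0.885, 1.46 and 1.27 CPM in the injured-sire libraries and 0.954, 1.87 and 2.48 CPM (lowest, median, highest) in the uninjured-sire group. These are 28 to 80 counts a library, and the groups overlapped. A log2 fold change of -0.45 ± 0.309 (SE), with a 95% confidence interval of -1.09 to 0.19 and an edgeR adjusted p of 0.722, left both a fall and a small rise within its range. Replicate 16 had 1.10 CPM of Aim2.

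Of 8 other PYHIN genes found in the table, 6 passed the filter on low counts, 5 had a lower fitted level and none was called (3 had an unadjusted p under 0.05 in edgeR). Their median log2 fold change was -0.52. Of all genes tested, 49.9% were lower and 4.68% were lower at an unadjusted p under 0.05 in edgeR. Every injured-sire library lay below every uninjured-sire library for 0.625% of them. Nothing is read from these counts either, since the list was chosen with earlier results known. Ifi209 averaged 1.06 CPM in the injured-sire and 1.95 CPM in the uninjured-sire group without overlap, and its log2 difference was -0.88 ± 0.278 (SE; edgeR adjusted p = 0.291). Ifi211 averaged 0.963 and 1.55 CPM, also without overlap (-0.69 ± 0.282, adjusted p = 0.443), and as noted most of its sequence is shared. Ifi205 was at -0.90 ± 0.406, Ifi206 at -0.36 ± 0.570 and Ifi208 at -0.29 ± 0.422 on the same log2 scale. The pseudogene Ifi203-ps, which lies within the cluster and shares sequence with Ifi203, was at 0.12 ± 0.259. Ifi202b, with 0 to 5 counts a library, and Ifi214, with 0 to 11, were too low to test.

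**Figure D3:**
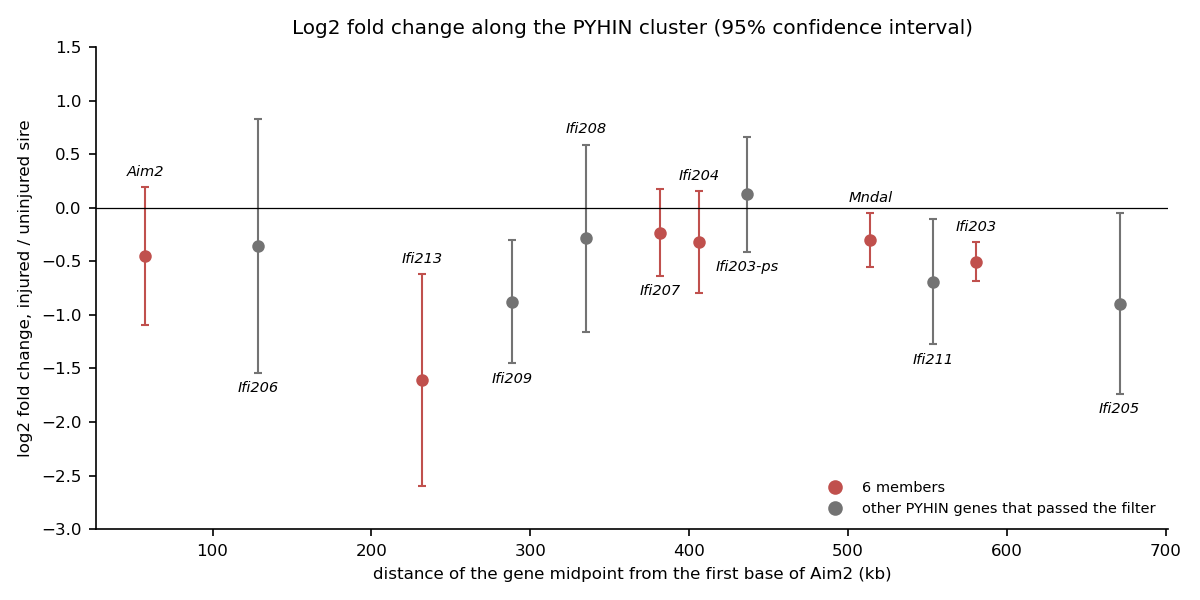
Log2 fold change (injured over uninjured sire) with its 95% confidence interval for the 12 PYHIN genes that passed the filter, placed by distance in kb from the first base of Aim2. All 6 members (red) have point estimates below 0, and of the relatives (grey) only Ifi203-ps lies above it.

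From 500 kb before the members to 500 kb after them, 5 genes not listed as PYHIN genes passed the filter, and none was called. The adhesion gene Cadm3 was at 0.55 ± 0.250 and the chemokine receptor gene Ackr1 at 0.59 ± 0.443 on the log2 scale. The genes ENSMUSG00000131446 and ENSMUSG00000134544 were at -0.02 ± 0.447 and 0.55 ± 0.585. Both lie inside the cluster, where their spans overlap that of the pseudogene Ifi203-ps on the same strand.

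The inflammasome list held the genes that act with AIM2 and also those of other inflammasomes, such as Nlrp3 and Nlrc4. Of its 13 tested genes, 7 were lower, 6 higher and none called, with a median log2 fold change of -0.03 (1 had an unadjusted p under 0.05 in edgeR, against 8.96% of all genes in either direction). Over the 19 alternatives, 5 to 11 of the inflammasome genes were lower. The number was 11 without injured-sire replicate 13, and 5 without injured-sire replicate 17 or uninjured-sire replicate 22. The gene with the smallest p was Casp1, the protease that AIM2 activates, at 1.33 ± 0.417 CPM (SD, n = 5) and 2.25 ± 0.263 CPM (SD, n = 6), which differed by -0.76 ± 0.251 (SE) in log2 with an edgeR adjusted p of 0.316. Gsdmd, the pore-forming substrate of caspase-1, was at -0.19 ± 0.112, and Nlrp1b, the sensor of another inflammasome, at 0.45 ± 0.514.

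Among 22 genes of other nucleic acid sensing, 14 were lower and none was called, with a median log2 fold change of -0.08 (4 had an unadjusted p under 0.05 in edgeR, 3 of them lower). Samhd1, a nucleotide hydrolase that limits viral replication, was at -0.20 ± 0.0624, the RNA-sensing adaptor Mavs at -0.17 ± 0.0561 and the interferon regulatory factor Irf7 at -0.40 ± 0.135 on the log2 scale. Of 17 genes of interferon receptors and signalling, 14 were lower and none called, with a median of -0.13 (3 had an unadjusted p under 0.05 in edgeR). Irf9 and Stat2, parts of the factor that binds the interferon-stimulated response element, were at -0.30 ± 0.0921 and -0.24 ± 0.0769, and the receptor chain Ifngr2 at -0.13 ± 0.0492. The smallest edgeR adjusted p in these 2 lists was 0.254. Over all genes tested, 49.9% were lower and 4.68% were lower at an unadjusted p under 0.05 in edgeR.

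Since PYHIN genes are best known in immune cells, the markers of such cells are given beside these results. Macrophage markers were lower for 10 of 13 genes, and their sum ran from 267 to 336 CPM in the injured-sire and from 301 to 362 CPM in the uninjured-sire group. All 5 tested monocyte markers were lower (sums of 4.43 to 10.4 against 4.95 to 14.4 CPM), as were 7 of 7 for T and NK cells (3.79 to 13.03 against 4.25 to 21.9 CPM) and 6 of 6 for B cells (11.9 to 43.5 against 11.7 to 77.3 CPM). The median B cell sum went the other way, with 27.1 CPM in the injured-sire and 20.5 CPM in the uninjured-sire group. The sums overlapped between groups in each case and none of these genes was called. Among all tested genes, 49.9% were lower. The NK cell marker Klrb1c was at or near 0 in both groups, with no count in the injured-sire libraries and at most 0.137 CPM in the uninjured-sire libraries. Neutrophil markers were lower for 0 of 4 and summed to 2.92 to 19.3 CPM against 2.82 to 27.5 CPM. Their median sum was 14.3 CPM in the injured-sire and 5.40 CPM in the uninjured-sire group. Airway markers, of tissue outside the heart, were lower for 0 of 4 and summed to 25.1 to 351 CPM against 0.266 to 219 CPM. The median airway sum was 135 CPM in the injured-sire and 1.62 CPM in the uninjured-sire group. Fat markers were lower for 0 of 5 and summed to 1079 to 1505 CPM against 798 to 1396 CPM. The part of these cell types and tissues in the levels of the 6 genes was not tested.

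A measure that the choice of members did not use is how they varied between libraries of the same group. After the group means were subtracted from log2 CPM, 11 of 15 pairs of members were positively correlated over 11 libraries, with a median Pearson r of 0.26. Only Ifi203 and Mndal passed after Benjamini-Hochberg adjustment over the 15 pairs, with r = 0.91 (permutation p = 0.00138, adjusted p = 0.0207, two-sided, shuffled within groups) and Spearman rho = 0.92 (permutation p = 0.0009, adjusted p = 0.0135). Without the 2 libraries farthest from the median of Ifi203, r was 0.85. Ifi207 and Aim2 came next, with r = 0.78 and rho = 0.73 (permutation p = 0.0129 and 0.0239, adjusted 0.0967 and 0.179), and did not pass. Ifi203 and Mndal were also the members with the most counts. The part of low counts in the r of the other pairs was not tested. With single libraries left out, the number of pairs that passed ran from 0 to 2, and it was 0 when replicate 13, 14, 17 or 18 was left out and 2 without uninjured-sire replicate 23.

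**Figure D4:**
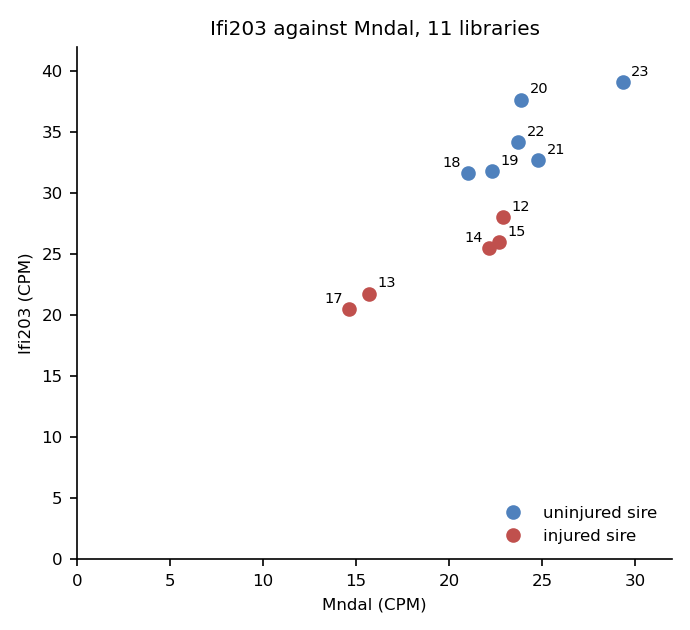
Ifi203 against Mndal in CPM for 11 libraries, labelled by replicate number. Libraries high in one gene tend to be high in the other within each group, from replicate 17 (14.6 CPM of Mndal, 20.5 of Ifi203) to replicate 23 (29.4 and 39.1).

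Ifi203 and Mndal shared 230 of the 50-base transcript windows, which is 3.34% of those of Ifi203 and 6.19% of those of Mndal. Their ratio was not constant. There were 1.26 ± 0.125 Ifi203 counts per Mndal count in the injured-sire group (SD, n = 5; 1.14 to 1.40) and 1.43 ± 0.0995 in the uninjured-sire group (SD, n = 6; 1.32 to 1.58). Outside the members, the genes whose within-group pattern was most like the members' mean were Arhgap1 (r = 0.89), Epb41l4a (0.88), Zfp984 (0.88), Ago4 (0.88) and Mcmbp (0.87), the highest of 13922 genes over 11 libraries. The members themselves had lower r with that mean, from 0.30 for Ifi213 to 0.80 for Aim2. Each member is part of that mean, which raises its r. How high r runs by chance among so many genes was not tested.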

How the data were processed

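The deposited values are raw counts of reads for each Ensembl gene and were not normalized. Per the file headers the authors made these counts with featureCounts 2.1.1 on the Ensembl 114 annotation of GRCm39, with strand setting 2 and without options for paired ends or multi-mapping reads. The submitters' processing notes name STAR 2.7.10a, Subread 2.0.3, Salmon 1.9.0 and DESeq2 1.44.0. Another 11 sample columns were not used.

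Genes were filtered with filterByExpr of edgeR 4.0.16 in R 4.3.3 (at least 10 counts, total at least 15). The 17130 left were scaled by TMM and fitted with its two-sided quasi-likelihood F test. P-values were adjusted by the Benjamini-Hochberg method over all of them, with a threshold of 0.05. Log2 CPM carried a prior count of 2. Co-variation used 100000 permutations within groups. Of these steps, the edgeR fit and the pair correlations were tested on simulated data. Members and gene lists were chosen with earlier results of these data known. All 6 members are named, with relatives and neighbours that passed the filter (the values of 1 neighbour are not reported here), the 3 genes of smallest p in each other list, and the 5 genes most like the members. The search for shared transcript windows was added after the data had been seen. Alternatives were all 12 libraries, each library left out, other scaling factors, DESeq2 1.42.0, other filters and a sex-linked covariate.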

Additional observations from a re-analysis of the deposited data

How the results depend on the processing

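No member changed direction in any of 113 fitted values over the alternatives. Log2 fold changes ran from -0.56 to -0.45 for Ifi203, -1.93 to -1.33 for Ifi213, -0.36 to -0.21 for Mndal, -0.34 to -0.10 for Ifi207, -0.54 to -0.19 for Ifi204 and -0.69 to -0.33 for Aim2. Ifi203 was past the threshold in 17 of 19 alternatives. Ifi213 was called with the DESeq2 Wald test only (log2 fold change -1.62, adjusted p = 0.0477, range over its alternatives 0.0477 to 0.45), which made 2 members called, and it was not tested with the filter of 1 CPM in 5 libraries. With single libraries left out, 0 to 1 members and 8 to 43 genes in all were called (leaving out replicate 12 gave 28, 13 gave 8, 14 gave 9, 22 gave 43 and 23 gave 9). Genes called, 18 in the comparison as reported, were 134 with the DESeq2 Wald test, 236 with no filter and 28 with the filter of 1 CPM in 5 libraries. The split was 17 higher and 8 lower with no scaling factor, and 7 higher and 12 lower with upper-quartile factors. Pairs of members past the threshold for co-variation numbered 0 to 2 with single libraries left out. The cause of these changes was not tested. As TPM the levels were 16.3 for Mndal, 11.8 for Ifi203, 4.99 for Ifi207, 2.71 for Ifi204, 1.19 for Aim2 and 0.303 for Ifi213. TPM divides by the same counted lengths, so the order within a library could not change and was not tested by it. No paired analysis was possible because the labels link no injured-sire library to an uninjured-sire library. At 2 to 52 counts a library, Ifi213 is limited by depth.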
